A study of Neotoma stephensi and Rattus norvegicus with 6 samples.

Results

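Actins are the globular proteins that polymerize into the thin filaments of every animal cell. The cytoplasmic isoforms, beta-actin (Actb) and gamma-actin (Actg1), build the cortical and adhesion filaments of epithelial and stromal cells, whereas the alpha-actins of skeletal muscle (Acta1), heart (Actc1) and vascular smooth muscle (Acta2) and the gamma-actin of enteric smooth muscle (Actg2) form the thin filaments that myosin pulls on during contraction. Actbl2 is a beta-actin-like gene with a cytoplasmic type of sequence. The isoforms differ in few residues, and their coding sequences are alike over long stretches.

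The actin isoforms were chosen by gene symbol, from a list of 5 (Actg1, Actbl2, Actb, Acta1 and Actc1) drawn up with the read counts of these animals already known, so their values are given as a description. Of the 5, 2 were among the 15481 genes of the deposited counts, Actg1 (ENSMUSG00000062825.14) and Actbl2 (ENSMUSG00000055194.3). Actb, Acta1 and Actc1, as well as Acta2 and Actg2, were not analysed here. The study's own list of identifiers that were left out of the alignment reference names Acta1 as a paralog. Each read went to the mouse gene with its best alignment score, and reads that scored equally for several genes were kept out of the final counts once the excluded identifiers had been removed. A read of a removed isoform, or of a woodrat or rat actin that differs from its mouse counterpart, may therefore stand under Actg1 or Actbl2. How the reads of the isoforms were divided was not tested, and the counts of Actg1 and of Actbl2 are uncertain as measures of single genes. Their sum does not depend on the division between these 2, but it may hold reads of other actins.

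The animals were 3 Stephens' woodrats (Neotoma stephensi), which were caught in the wild, fed juniper foliage and dissected the day after they reached the laboratory, and 3 Sprague Dawley lab rats (Rattus norvegicus), which were bought from a breeder and kept on standard chow for months. All were females, which the sample labels call virgin, whereas the study states that this was unknown for the woodrats. No age was given. Species, diet, origin and housing all differ between the 2 groups and cannot be told apart. The tissue was a piece of the fornix ventricularis, or fundus, of the stomach, from which polyA mRNA was sequenced with strand kept, in 1 library per animal.

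The libraries held between 5439642 and 7932637 counted reads, and 3 reads corresponded to between 0.355 and 0.586 CPM, or counts-per-million, a scale set with edgeR's TMM factors. The squamous epithelium markers, led by Krt13 in woodrats and Krt10 in lab rats, summed to 21080 to 57770 CPM in woodrats and 53430 to 78010 CPM in lab rats. Of the 12 tested, 1 (Krt4) was higher and 1 (Krtdap) lower in woodrats. Markers of the glandular stomach, led by Atp4a, summed to no more than 12.9 CPM in any animal. Of the 2 that could be tested, 1 (Muc5ac) was higher in woodrats, beside 10.3% of all tested genes. It had 3.32, 1.67 and 3.91 CPM in woodrats 1, 2 and 3 and 0 CPM in every lab rat. Atp4a, with a log2 fold change of -0.51, was not called. Markers of smooth muscle, led by Myh11 in woodrats and Tagln in lab rats, summed to 113600, 56650 and 36250 CPM in woodrats 1, 2 and 3 and to 9778, 16460 and 17070 CPM in lab rats 1, 2 and 3. By the edgeR test at an FDR of 0.01, 5 of these 12 markers were higher in woodrats and 0 lower, and DESeq2 called 11 higher. Over all 12603 tested genes, edgeR called 10.3% higher and 9.71% lower, and DESeq2 called 1986 genes higher. For all 12 markers, every woodrat lay above every lab rat, as in 28.8% of all tested genes. Their median log2 fold change was 2.50, or 1.94 without woodrat 1. Woodrat 1 thus held the most smooth muscle transcript and the least squamous epithelium transcript of the 6 animals, and values that rest on it are given with and without it.

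Actg1, the cytoplasmic gamma-actin, had 144762, 85050 and 82613 reads in woodrats 1, 2 and 3. In lab rats 1, 2 and 3 it had 51829, 53879 and 55525 reads. In CPM these were 28274, 11805 and 9786 for the woodrats and 6432, 8912 and 10695 for the lab rats. Woodrat 1 was the highest animal by far, and the other two woodrats overlapped with the lab rats, since lab rat 3 lay above woodrat 3. The woodrats averaged 16621 ± 10142 CPM (SD, n = 3), as against 8679.5 ± 2140.9 CPM (SD, n = 3) for the lab rats, and the gap between these means was smaller than the spread among the woodrats. The fitted log2 fold change was 0.94 (standard error 0.56), which corresponds to a 1.92-fold higher level in woodrats. In bulk tissue, more cells of a type and more RNA per cell cannot be told apart.

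Actbl2 had 100659, 48885 and 55910 reads in woodrats 1, 2 and 3. The corresponding numbers for lab rats were 25076, 28117 and 27515 reads. In CPM the woodrats were at 19660, 6785 and 6623 and the lab rats at 3112, 4651 and 5300. Every woodrat lay above every lab rat, which was also the case for 28.8% of the 12603 tested genes, and the gap between the lowest woodrat and the highest lab rat was 0.32 on the log2 scale. The woodrats averaged 11023 ± 7480.7 CPM (SD, n = 3) and the lab rats 4354 ± 1124 CPM (SD, n = 3), again a gap smaller than the spread among the woodrats. The fitted log2 fold change was 1.34 (standard error 0.56), a 2.53-fold higher level in woodrats.

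**Figure D1:**
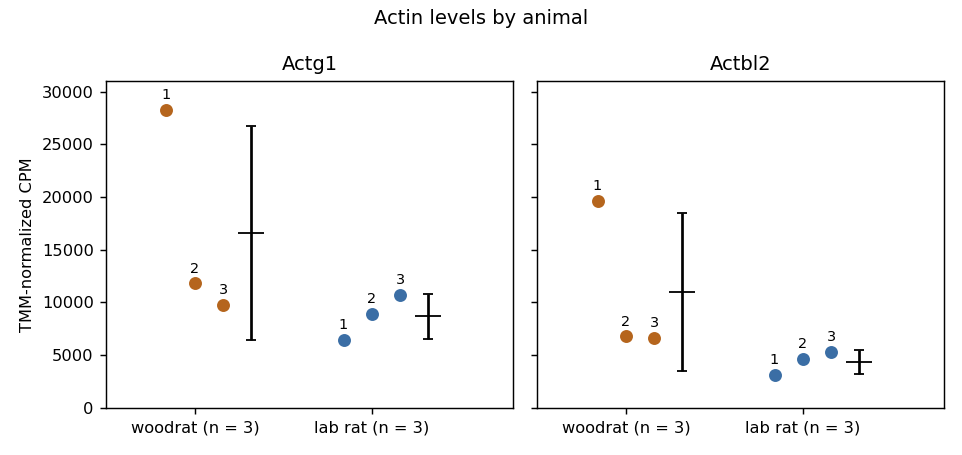
TMM-normalized CPM of Actg1 (left) and Actbl2 (right) in each animal, on an axis that starts at 0. Points are animals, numbered by replicate, and the bars give the mean and SD of 3 animals. Woodrat 1 stands above all others for both genes, at 28274 and 19660 CPM, while the other two woodrats lie near the lab rats.

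At an FDR below 0.01, 0 of the 2 actins passed the edgeR quasi-likelihood test in either direction. Over all 12603 tested genes, 10.3% passed it as higher in woodrats and 9.71% as lower. At an unadjusted p below 0.05, 1 of the 2 actins would have been counted, beside 6261 of all 12603 tested genes. DESeq2 called 0 of 2 at the same FDR, beside 3916 of all tested genes. Since the list of actins was drawn up with these counts known, nothing is read from these numbers. Among all tested genes, 24.0% had a larger log2 fold change than Actg1 and 16.1% a larger one than Actbl2, and the median over all tested genes was 0.03.

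Both actins varied more among the woodrats than among the lab rats. The highest woodrat was 2.89 times the lowest for Actg1 and 2.97 times for Actbl2. Among the lab rats these ratios were 1.66 and 1.70. For comparison, over the 77 genes that had at least 1000 CPM in every animal, the median ratio of the highest to the lowest animal was 1.57 in woodrats and 1.92 in lab rats. Woodrat 1 held 2.62 times the mean of the other two woodrats for Actg1 and 2.93 times for Actbl2. Woodrat 1 was the highest of the 6 animals in 22% of all tested genes and in 12 of the 12 smooth muscle markers. The sum of these markers also spread widely among the woodrats, from 36250 to 113600 CPM, and ran from 9778 to 17070 CPM in the lab rats. The biological coefficient of variation that edgeR estimated was 39.7% for Actg1 and 41.8% for Actbl2, against a median of 31.1% over all tested genes.

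The fold changes of the actins depended on woodrat 1. Without this animal, the log2 fold change of Actg1 was 0.31 in place of 0.94, and that of Actbl2 was 0.62 in place of 1.34. Leaving out any other animal kept Actg1 between 0.76 and 1.21 and Actbl2 between 1.15 and 1.60. Of the 9 pairs of 1 woodrat and 1 lab rat, the woodrat was higher in 8 for Actg1, with log2 differences from -0.13 to 2.14 and a median of 0.61. For Actbl2 it was higher in 9 of 9 pairs, with log2 differences from 0.32 to 2.66 and a median of 1.09. Pairs that share an animal are not independent.

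**Figure D2:**
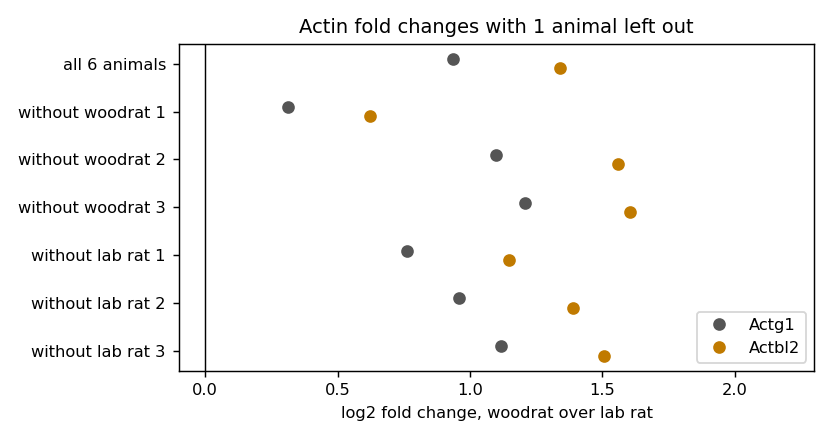
Log2 fold change (woodrat over lab rat) of Actg1 and Actbl2 in the fit of all 6 animals and in the fits that each left out 1 animal. All values are above 0, and both genes reach their lowest value, 0.31 and 0.62, without woodrat 1.

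Summed over both genes, the actin reads came to 245421, 133935 and 138523 in woodrats 1, 2 and 3 and to 76905, 81996 and 83040 in lab rats 1, 2 and 3. This was 4.29%, 1.89% and 1.75% of all counted reads of the woodrats. In the lab rats it was 1.05%, 1.51% and 1.34%. On this scale, which uses no TMM factor, every woodrat was above every lab rat, and woodrat 1 again stood apart from the other five. After TMM normalization the sums were 47934, 18590 and 16408 CPM in woodrats and 9544, 13563 and 15994 CPM in lab rats, so that woodrat 3 and lab rat 3 nearly met. The log2 ratio of the group means of the normalized sums was 1.08, and 0.43 without woodrat 1.

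By read count, uncorrected for coding length, Actg1 was among the most heavily read genes in every animal. It stood at rank 3, 7 and 8 in woodrats 1, 2 and 3 and at rank 13, 6 and 11 in lab rats 1, 2 and 3. Actbl2 stood at rank 8, 15 and 14 in the woodrats and at rank 29, 16 and 29 in the lab rats. Both genes were thus among the 29 most read genes of each library, and sampling of reads contributed little to their spread. The deposited tables give no coding lengths, so reads of Actbl2 and Actg1 are not compared as levels of 2 genes, and only the change of their ratio between animals is described.

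That ratio was higher in each woodrat than in each lab rat, with more spread among the woodrats. Actbl2 made up 41.0% of the summed actin reads in woodrat 1 (95% Wilson interval 40.8 to 41.2%), 36.5% in woodrat 2 (36.2 to 36.8%) and 40.4% in woodrat 3 (40.1 to 40.6%). In lab rats 1, 2 and 3 it made up 32.6% (32.3 to 32.9%), 34.3% (34.0 to 34.6%) and 33.1% (32.8 to 33.5%). The intervals cover counting error only, and reads of 1 library without molecular identifiers are not independent molecules. The woodrat mean of 39.3 ± 2.44% (SD, n = 3) exceeded the lab rat mean of 33.3 ± 0.86% (SD, n = 3) by 5.95 percentage points. Unlike the levels, the shares did not set woodrat 1 apart, since woodrats 1 and 3 were close to each other and woodrat 2 lay between them and the lab rats. With each animal left out in turn the difference stayed between 5.09 and 7.34 percentage points. Expressed as a ratio, there were 0.649 ± 0.065 Actbl2 reads per Actg1 read (SD, n = 3) in the former species and 0.500 ± 0.020 (SD, n = 3) in the latter. This share does not depend on library scaling, but it does depend on which actin a shared read was assigned to, and the woodrat and rat sequences may differ in that respect. This was not tested.

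**Figure D3:**
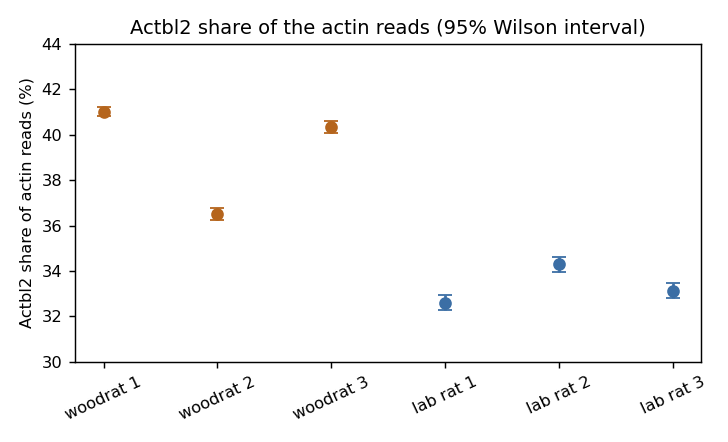
Share of Actbl2 in the summed reads of Actg1 and Actbl2 in each animal, in percent, with 95% Wilson intervals for counting error. The axis runs from 30 to 44%. The 3 woodrats lie between 36.5 and 41.0% and the 3 lab rats between 32.6 and 34.3%.

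The summed actin CPM and the summed smooth muscle markers put the 6 animals in the same order, from woodrat 1, the highest, through woodrats 2 and 3 to lab rats 3, 2 and 1. Their ratio differed between the species. Per 100 reads of the 12 smooth muscle markers there were 42.2, 32.8 and 45.3 actin reads in woodrats 1, 2 and 3. In lab rats 1, 2 and 3 there were 97.6, 82.4 and 93.7. Every woodrat was below every lab rat, so the actins differed less between the species than the muscle markers did. The means were 40.1 ± 6.49 (SD, n = 3) and 91.2 ± 7.91 (SD, n = 3). Per 100 reads of the 12 squamous epithelium markers there were 227.4, 51.5 and 28.4 actin reads in the woodrats and 16.4, 25.4 and 20.5 in the lab rats. The ratio to the epithelial markers therefore varied widely among woodrats, and woodrat 3 came close to lab rat 2. The part of muscle content in the actin differences was not tested.

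**Figure D4:**
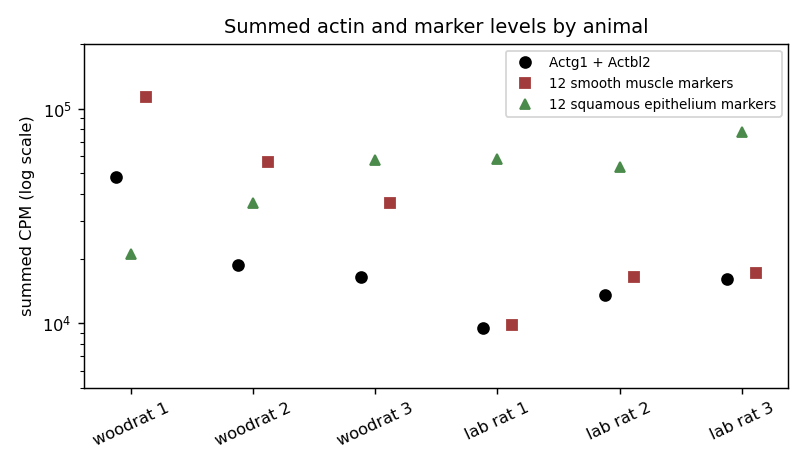
Summed CPM of the 2 actins, of 12 smooth muscle markers and of 12 squamous epithelium markers in each animal, on a log axis. In woodrat 1 the actins reach 47934 CPM and the muscle markers 113600 CPM, while the epithelial markers are at their lowest, 21080 CPM. In the lab rats the actins and the muscle markers lie close together.

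The genes most like each actin were taken as those with the highest Pearson correlation of log2 CPM over the 6 animals, among 3658 genes with a mean of at least 50 CPM in one species. For Actg1 they were Tubg2, a gamma-tubulin (r = 0.997), Mustn1, a small musculoskeletal protein (r = 0.994), and Anxa6, an annexin that binds membranes in the presence of calcium (r = 0.988). Like Actg1, all of them were highest in woodrat 1, with Mustn1 at 216.0, 69.95 and 48.1 CPM in the woodrats and 27.2, 40.5 and 64.1 CPM in the lab rats. For Actbl2 they were Ppap2a, a lipid phosphatase (r = 0.995), Ehbp1l1 (r = 0.994) and Atf5, a transcription factor of the stress response (r = 0.990). Ehbp1l1 had 429.5, 180.4 and 185.9 CPM in the woodrats and 96.3, 125.9 and 130.8 CPM in the lab rats, so that woodrat 1 again stood far above woodrats 2 and 3. The 2 actins correlated with each other at r = 0.984. These are descriptions over 6 animals of 2 species, with woodrat 1 far from the others, and all 6 genes were chosen on the values that are described.

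Actin filaments are made, shaped and pulled on by proteins that were examined as 9 lists with 169 genes in all, of which 149 were tested. Of these, 26 were higher and 13 lower in woodrats at an FDR below 0.01 (edgeR quasi-likelihood test), against the shares of 10.3% and 9.71% over all tested genes. Their median log2 fold change was 0.33, beside 0.03 over all tested genes. DESeq2 called 41 higher and 17 lower, beside 1986 and 1930 of all 12603 tested genes. By edgeR without woodrat 1, the counts for these lists were 23 and 11. They were 13 and 4 without woodrat 2 and 30 and 12 without woodrat 3. Without lab rat 1 they were 10 and 5, without lab rat 2 14 and 6, and without lab rat 3 14 and 7. The calls over all tested genes also changed, from 2516 with all 6 animals. They were 1876, 898 and 2626 without woodrats 1, 2 and 3. Without lab rats 1, 2 and 3 they were 936, 1050 and 1305. Of the 35 genes named from these lists, 14 stayed past the threshold in each of the 6 fits that left out 1 animal. These were Cap2, Gmfg, Wasf1, Wasf3, Jmy, Daam2, Spire1, Svil, Pls1, Lcp1, Coro1a, Smtnl1, Vbp1 and Myocd. The other 21 lost the call without at least 1 animal, and Was lost it in all 6 fits. Lmod1, Myocd, Cnn1, Tagln and Myh11 of these lists are also smooth muscle markers. The smooth muscle markers, with their median of 2.50, shared the direction of the genes that were higher in woodrats. The order of the animals was not shared throughout. Woodrat 1 was the highest animal in all 12 smooth muscle markers and in 53 of the 149 tested genes of these lists. Among the genes called higher, Cap2 and Lmod1 were highest in woodrat 1, whereas Scin, Jmy, Spire1 and Daam2 were not. The part of muscle content in the values of the genes called higher was not tested.

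The proteins that bind actin subunits set how many are free to polymerize. Of 19 tested genes of such proteins and of related regulators, 3 were higher and 2 lower in woodrats, with a median log2 fold change of 0.27. In either direction 26.3% were called, against 20.0% of all tested genes. Cap2, a cyclase-associated protein that recycles subunits in muscle, had 144.9, 80.2 and 62.7 CPM in woodrats and 10.1, 11.9 and 5.39 CPM in lab rats, and rose by 3.38 on the log2 scale (standard error 0.43, edgeR adjusted p = 0.00105). Cfl2, the muscle form of cofilin, and Ssh1, a phosphatase that activates cofilin, rose by 2.15 and 2.79 on the log2 scale. Tmsb4x, which encodes thymosin beta-4, the main sequestering protein of actin monomers, had 443.0, 297.2 and 250.8 CPM in woodrats and 1095, 1092 and 2050 CPM in lab rats. It fell by 2.10 on the log2 scale (standard error 0.39, edgeR adjusted p = 0.00448), a call that held in 1 of the 6 fits that left out 1 animal. Gmfg, known from blood cells, fell by 3.55.

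The Arp2/3 complex starts branched filaments at the membrane. Of its subunits and activators, 27 were tested, 2 were higher and 4 lower, and the median log2 fold change was -0.19. The 22.2% called in either direction was near the 20.0% of all tested genes. Wasf3, a WAVE activator, had 90, 63 and 91 reads in the woodrats and 1, 0 and 0 in the lab rats. The ratio was 227, with an interval from 40.3 to 8990 that covers counting error only. How well lab rat reads of Wasf3 were placed on mouse transcripts was not tested. Wasf1 rose by 2.73 on the log2 scale. The other calls were Arpc1b, a subunit of the complex, which fell by 1.50, and Nckap1l, Hcls1 and Was, which are best known from blood cells. Nckap1l fell by 3.25, Hcls1 fell by 2.49 and Was fell by 2.09.

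Formins, leiomodins and other nucleators make unbranched filaments. The list examined also held genes that are not nucleators, among them Enah, Vasp and Evl. Of its 20 tested genes, 7 were higher and 1 lower in woodrats, the median log2 fold change was 0.82, and DESeq2 called 9 and 1. Enah and Evl, with log2 fold changes of 2.31 and 2.02, were among the 7. The edgeR calls made up 40.0% of the list, against 20.0% of all tested genes. Lmod1, the leiomodin of smooth muscle, had 1636, 1031 and 621 CPM in woodrats and 168, 254 and 231 CPM in lab rats. It rose by 2.33 on the log2 scale (standard error 0.41, edgeR adjusted p = 0.00351), and the call held in 2 of the 6 fits that left out 1 animal. Jmy, Daam2 and Spire1 rose by 3.24, 2.64 and 2.56 on the log2 scale, and all 3 kept their calls in each of those fits. Fmnl1, a formin of blood cells, fell by 2.16.

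Of 33 tested genes for capping, severing and crosslinking of filaments, 5 were higher and 4 lower in woodrats. This was 27.3% called, against 20.0% of all tested genes, and the median log2 fold change was 0.25. Svil, or supervillin, which ties filaments to the membrane, had 1235, 1302 and 590 CPM in woodrats and 79.4, 113.5 and 66.5 CPM in lab rats, and rose by 3.59 on the log2 scale (standard error 0.42, edgeR adjusted p = 0.000833). Flnc, the muscle filamin, rose by 2.66 and Tmod1, which caps the slow-growing end, by 2.52. The rise of Flnc had an adjusted p of 0.0109 without woodrat 1 (edgeR). Scin, a severing protein, rose by 5.29 but woodrat 1, at 1.76 CPM, was far below woodrat 3, at 39.1 CPM, and the call held in 2 of the 6 fits that left out 1 animal. Pls1, a bundling protein of epithelia, had 4 reads over all woodrats and 234 over all lab rats and fell by 5.83. Of the leukocyte proteins, Lcp1 fell by 4.09 and Coro1a fell by 3.57. Tmod4 had 3 woodrat reads and 49 lab rat reads, a 17.6 times higher CPM in lab rats, with a counting interval from 5.67 to 88.2. How well woodrat reads of Pls1 and Tmod4 were placed on mouse transcripts was not tested.

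Several of the genes that fell are known from leukocytes, and most of the tested leukocyte markers were also lower in woodrats. The 12 markers, which include Lcp1 and Coro1a, summed to 8.98 to 14.0 CPM in woodrats and 85.3 to 130 CPM in lab rats, with Csf1r at the top in both species. Of the 8 that were tested, 7 were lower in woodrats and 0 higher, against 9.71% lower and 10.3% higher over all tested genes. Lcp1 and Coro1a are among these 7, so the markers and the genes that fell are not separate sets. The part of leukocyte content in the lower values of Gmfg, Nckap1l, Hcls1, Was and Fmnl1 was not tested.

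Tropomyosins, caldesmon, calponins, transgelins and smoothelins bind along the filament. Of 14 tested, 3 were higher (Smtnl1, Cald1 and Cnn2) and 1 lower (Tagln2), or 28.6% called, against 20.0% of all tested genes. The median log2 fold change of 1.25 was close to the value for Actbl2. Cald1, or caldesmon, had 3397, 2091 and 1375 CPM in woodrats and 205, 326 and 127 CPM in lab rats. This rise measured 3.38 on the log2 scale (standard error 0.51, edgeR adjusted p = 0.00197). Cnn2, the calponin of nonmuscle cells, rose by 1.68, and Tagln2, a transgelin of nonmuscle cells, fell by 1.64. The median of the list was 0.63 without woodrat 1, and Tagln2 then had an edgeR adjusted p of 0.0136. Smtnl1 had 6704 reads over all woodrats and 1 over all lab rats.

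Myosin II pulls on the actin filaments of the cortex and of smooth muscle. Of 5 myosin II genes tested, 2 were higher in woodrats and 0 lower, or 40.0% called, against 20.0% of all tested genes. All 5 were highest in woodrat 1, as were 22% of all tested genes. Myh9, the nonmuscle heavy chain that works with cytoplasmic actin, had 5839, 3357 and 2576 CPM in woodrats and 597, 837 and 518 CPM in lab rats, which was a rise of 2.59 on the log2 scale (standard error 0.44, edgeR adjusted p = 0.00312). Myh10 rose by 1.74. Both calls held in 2 of the 6 fits that left out 1 animal.

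Newly made actin is folded by prefoldin and the CCT chaperonin. Of 15 tested genes of this group, 1 was higher and 1 lower, and the median log2 fold change was -0.24. The 13.3% called in either direction was below the 20.0% of all tested genes. Vbp1, a prefoldin subunit, had 168, 201 and 213 reads in the woodrats and 0, 0 and 1 in the lab rats. The ratio was 541, with an interval from 96.7 to 21400 that covers counting error only. How well lab rat reads of Vbp1 were placed on mouse transcripts was not tested. Pfdn1, another subunit, fell by 1.58 on the log2 scale. The sum of the group was 2097 to 2309 CPM in woodrats and 2524 to 3900 CPM in lab rats, and every woodrat lay below every lab rat in this sum.

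The promoters of actin genes are bound by SRF and its cofactors. Of 8 such genes tested, 2 were higher in woodrats and 0 lower, against 10.3% and 9.71% of all tested genes. All 8 had a positive log2 fold change, as did 6432 of all 12603 tested genes. The median of the 8 was 1.28. The number called higher was 1 without woodrat 1 and 3 without woodrat 3. It was also 1 without woodrat 2 and without each of the lab rats in turn. Myocd, or myocardin, the cofactor of smooth and cardiac muscle, had 36.7, 36.1 and 34.0 CPM in woodrats and 3.10, 4.30 and 1.54 CPM in lab rats, and rose by 3.56 on the log2 scale (standard error 0.38, edgeR adjusted p = 0.000649). In contrast to both actins, its level was nearly the same in the 3 woodrats. Elk4, another SRF partner, rose by 1.59, and this call held in 1 of the 6 fits that left out 1 animal. Among 8 tested actin-related proteins, which share the actin fold and serve chromatin and dynactin, Actr1b rose by 1.46 and no other gene passed the threshold. This was 12.5% called, against 20.0% of all tested genes. The Actr1b call also held in only 1 of those fits.

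**Figure D5:**
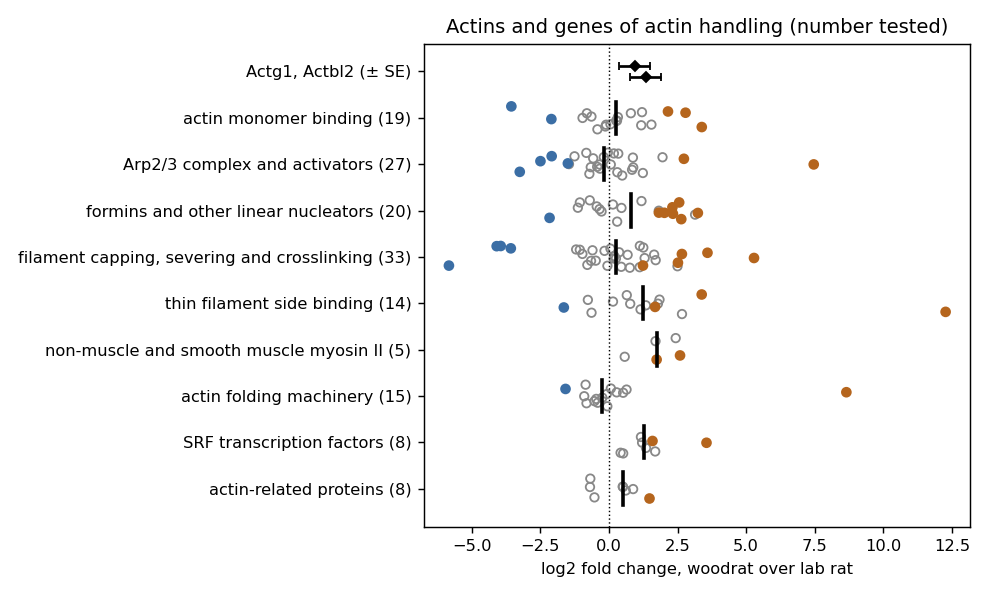
Log2 fold change (woodrat over lab rat) of Actg1 and Actbl2, with standard errors, and of the tested genes of 9 lists of actin-handling genes. Filled points passed an FDR of 0.01, brown for higher and blue for lower in woodrats, open circles did not, and black lines are list medians. The medians run from -0.24 for the folding machinery to 1.74 for myosin II.

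Striated muscle, the tissue of Acta1 and Actc1, left little transcript in these libraries. Of 32 striated muscle markers, 28 were in the counts and 12 were tested. Their sum was 193 to 422 CPM in woodrats and 67.1 to 175 CPM in lab rats. The most abundant was Ckm, the muscle creatine kinase, in woodrats (330.5, 209.9 and 139.7 CPM) and Tnnt2, a troponin T, in lab rats (20.6, 26.1 and 71.5 CPM). Ckm, Ryr2 and Tnni2 were higher in woodrats, and Tnnt2 and Myl2 were lower, or 41.7% called, against 20.0% of all tested genes. Ttn, Neb, Tnnt1 and Tnni3 were among the genes too low to test. Markers of fibroblasts and endothelium, led by Col3a1, summed to 1121 to 2564 CPM in woodrats and 2084 to 2640 CPM in lab rats. Of the 10 tested, 1 (Dcn) was lower in woodrats, as were 9.71% of all tested genes.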

How the data were processed

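Counts were analysed from 3 woodrats and 3 lab rats, grouped by their labels. The authors cleaned the reads with Trimmomatic, joined overlapping mates with FLASH and used cross_match to place them on the coding transcripts of the mouse (GENCODE M7). They deposited raw counts per mouse gene of uniquely placed reads on the correct strand. Versions of these tools are not given in the sources used here. The deposited tables held 15481 genes, of which 809 had no lab rat reads and 0 had no woodrat reads.

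A gene was tested if 3 or more animals reached 1 CPM, which left 12603 genes, both actins included. The study's limit of 5 CPM was an alternative. TMM factors and the quasi-likelihood F-test (the method used before edgeR 4) were computed with edgeR 4.0.16 in R 4.3.3, in a model of species alone. The prior count was 0.125, and Benjamini-Hochberg adjusted values over all tested genes were held to an FDR of 0.01. The standard error is the log2 fold change divided by the square root of F. Summaries used pandas 2.3.3 and scipy 1.17.1. DESeq2 1.42.0 was an alternative. The scripts were tested on simulated data.

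The members and lists were chosen with earlier results of these data known. The genes named from a list are up to 4 in each direction with the largest log2 fold change past the threshold whose CPM separated the species. Mustn1 and the other correlated genes follow the rule stated beside them. The main model did not pair the animals by replicate number. The smallest p of an exact permutation test is 0.1 for groups of 3. Other alternatives were DESeq2 size factors, total counts only, no filter, the edgeR 4 method, a replicate block, a larger prior count (2) and leaving out each animal. No sequence is shown, since no sequence table was used here.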

Additional observations from a re-analysis of the deposited data

How the results depend on the processing

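The Actb share that was planned could not be computed, and the Actbl2 share was taken in its place after seeing the data. With each animal left out, the log2 fold changes ranged from 0.31 to 1.21 for Actg1 and from 0.62 to 1.60 for Actbl2, the log2 ratio of the summed actins from 0.43 to 1.35, and the difference in Actbl2 share from 5.09 to 7.34 percentage points. DESeq2 size factors, total counts and a prior count of 2 kept Actg1 between 0.88 and 0.94 and Actbl2 between 1.28 and 1.34. The count of genes past the threshold, 2516 here, was 3916 with DESeq2 and from 898 to 2626 with 1 animal left out. Actin-handling genes higher in woodrats numbered 41 with DESeq2 and from 10 to 30 with 1 animal left out, and those lower numbered from 4 to 12. Same-numbered animals deviated from their species means with correlations from -0.289 to -0.088 over 3 pairs, and the mean over the 6 other pairs was 0.107. These values showed no sign of pairing by number. They cannot exclude it, since deviations from a mean of 3 animals are tied to one another. With the replicate block, 716 genes passed, with 10 actin-handling genes higher and 4 lower, and the log2 fold changes of Actg1 and Actbl2 were 0.78 and 1.14. Of the 35 named actin-handling genes, 0 changed direction under any alternative. By Spearman correlation, 0 of the 3 genes most like Actbl2 were kept, since 118 genes then shared the third place or better. The causes of these shifts were not tested. Counts of both actins were large, so depth did not limit them.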
